A study of Mus musculus with 6 samples.

Results

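The cathepsin genes Ctsb, Ctsc, Ctsd, Ctsh, Ctsl and Ctsz and the genes Ctla2a and Ctla2b, which encode relatives of the cathepsin propeptide, were followed in cultured mouse sympathetic neurons. These 8 genes of 19087 measured were selected by gene symbol, with their ratios in control neurons and their differences on interferon-gamma already known. Both sets of values are therefore given as a description, and no test is reported for the 8 genes.

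RNA was measured on 6 two-colour arrays, 3 of control neurons kept for 24 h and 3 of neurons given interferon-gamma, a cytokine of activated lymphocytes, at 500 U per ml for 24 h. The other channel of all 6 arrays held a common reference, made from sympathetic cervical ganglia taken at postnatal day 5 and left untreated. The labels give neither strain nor age for the cultured neurons and no genetic change in any group, and they do not say whether the replicates came from separate cultures. The study's title concerns protection of sympathetic neurons by interferon-gamma from apoptosis.

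Each value below is the deposited log2 ratio of neuron RNA over ganglion RNA, so 0 means equal shares in both and 1 means a doubled ratio. The log base and the direction, neuron over ganglion, were inferred from the range of the values, the dyes in the labels and the known targets of interferon-gamma. Dyes were not swapped, so a dye effect on a gene and a true difference between cultured neurons and ganglion cannot be told apart. A ganglion also holds glia, fibroblasts, vessels and immune cells, and in such bulk RNA fewer cells of a type and less RNA per cell cannot be told apart. A ratio says how a gene differs between the 2 RNAs and not how abundant its RNA is.

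Cathepsins are proteases that work mainly in lysosomes. Cathepsins B, C, H, L and Z are cysteine proteases of the papain family and cathepsin D is an aspartic protease. They are made as inactive precursors, and in enzymes such as cathepsin L a propeptide covers the active site until it is cut off. The mouse proteins CTLA2A and CTLA2B resemble the propeptide of cathepsin L without a protease attached, inhibit cathepsin L-like enzymes, and were first described in activated T cells and mast cells. In cells that present antigen, cathepsins S and L trim the invariant chain of MHC class II, and interferon-gamma is known to induce several genes of that route. Cathepsins that leak from lysosomes are also known as triggers of cell death.

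Upstream sequences were available in RefSeq tables (GRCm38.p6) for 6 of the 8 genes. They are shown because Ctla2a and Ctla2b had nearly the same values on every array, and because some windows hold letters of motifs known from the interferon response or from lysosomal genes. Each run is the 250 bases before an annotated transcription start, written 5′ to 3′ on the strand of the gene. The Ctla2a window lies on the minus strand at chr13:60936626-60936875 and the Ctla2b window on the minus strand at chr13:60897448-60897697. Capitals mark the letters TTCNNNGAA in Ctla2a, the pattern of a gamma-activated site, and the aligned bases in Ctla2b.
Ctla2a: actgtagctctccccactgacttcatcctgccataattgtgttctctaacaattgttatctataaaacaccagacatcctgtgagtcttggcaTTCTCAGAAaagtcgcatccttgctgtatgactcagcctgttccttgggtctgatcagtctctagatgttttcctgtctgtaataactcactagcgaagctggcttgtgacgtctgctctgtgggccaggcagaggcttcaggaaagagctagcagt
Ctla2b: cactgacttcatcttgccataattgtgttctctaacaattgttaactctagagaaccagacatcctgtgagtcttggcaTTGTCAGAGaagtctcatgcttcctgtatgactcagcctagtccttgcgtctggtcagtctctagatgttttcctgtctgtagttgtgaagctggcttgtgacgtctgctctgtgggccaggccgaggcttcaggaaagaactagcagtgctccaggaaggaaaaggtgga

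The windows of Ctla2a and Ctla2b aligned over 228 bases, of which 208 were identical (91.2%), with 1 internal gap. Counted from 1 at the first base of the motif in Ctla2a, with the Ctla2a base first, the Ctla2b window differed by C3G and A9G, and so did not hold these letters. A second annotated start of Ctla2a, whose window overlaps the first, held the same motif. Searched on both strands, TTCNNNGAA was found in 7.02% of 32851 windows of this length over all genes. The core of an interferon-stimulated response element, which is GAAA, then any 2 bases, then GAAA again, was found in 2.98% and the E-box CACGTG, the centre of the element that the lysosomal regulator TFEB binds, in 6.02%. None of the 3 patterns overlapped another in the windows printed.

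Capitals in the next windows mark TTCNNNGAA in Ctsc (plus strand, chr7:88277835-88278084), the response element core in Ctss (plus strand, chr3:95526536-95526785) and CACGTG in Ctsd (minus strand, chr7:142387828-142388077). Ctss, the gene of cathepsin S, is shown as the relative with the highest difference on interferon-gamma.
Ctsc: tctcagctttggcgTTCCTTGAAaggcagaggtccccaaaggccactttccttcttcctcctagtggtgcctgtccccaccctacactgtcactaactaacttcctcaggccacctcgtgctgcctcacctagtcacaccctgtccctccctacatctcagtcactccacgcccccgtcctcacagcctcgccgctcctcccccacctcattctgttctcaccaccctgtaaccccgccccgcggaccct
Ctss: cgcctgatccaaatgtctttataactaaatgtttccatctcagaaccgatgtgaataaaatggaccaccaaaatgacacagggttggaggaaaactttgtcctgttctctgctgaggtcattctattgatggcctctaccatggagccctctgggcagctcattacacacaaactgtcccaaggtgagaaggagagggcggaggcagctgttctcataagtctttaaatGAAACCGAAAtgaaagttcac
Ctsd: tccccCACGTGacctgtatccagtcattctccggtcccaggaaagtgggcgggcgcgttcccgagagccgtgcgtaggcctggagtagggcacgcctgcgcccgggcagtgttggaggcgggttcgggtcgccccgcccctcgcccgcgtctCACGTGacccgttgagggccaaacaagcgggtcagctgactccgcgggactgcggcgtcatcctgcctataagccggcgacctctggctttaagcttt

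The pattern in Ctss began 21 bases before the start and the pattern in Ctsc began 236 bases before it. Ctsd held CACGTG 98 and 245 bases before its start, and the Ctsl window held it 236 bases before its own. These matches describe letters in a window and not binding.

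Ctla2a and Ctla2b had the highest and the second highest mean ratio of all 19087 genes in control neurons. Ctla2a stood at 3.99, 3.77 and 4.04 on control arrays 1, 2 and 3, with a mean of 3.93 ± 0.14 (SD, n = 3), which is 15.3-fold above the ganglion reference. Ctla2b stood at 3.97, 3.74 and 4.05, with a mean of 3.92 ± 0.16 (SD, n = 3), or 15.1-fold. The 3 control arrays were close together for both genes.

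On interferon-gamma arrays 1, 2 and 3, the ratio of Ctla2a was 1.501, 3.77 and 2.76, with a mean of 2.68 ± 1.14 (SD, n = 3). Array 2 lay inside the control range and arrays 1 and 3 lay below it. For Ctla2b the ratios were 1.25, 3.73 and 2.86, with a mean of 2.61 ± 1.26 (SD, n = 3). Its array 2 lay just under the lowest control array, at 3.73 against 3.74. Treated minus control, the difference was -1.26 for Ctla2a and -1.31 for Ctla2b on the log2 scale. The mean of treated neurons was 6.40-fold above the ganglion for Ctla2a and 6.12-fold for Ctla2b.

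The size of this difference rested on single arrays and on the scaling. Without interferon-gamma array 1 it was -0.67 for Ctla2a and -0.62 for Ctla2b, and without array 2 it was -1.80 and -1.86. With quantile normalization between arrays it was -2.37 and -2.34, and the control means were 4.90 and 4.80.

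Other genes with high ratios also moved toward 0 on the same arrays. Across the 99 genes whose control mean exceeded 1.5, the median shift was -1.13 on interferon-gamma array 1, 0.05 on array 2 and -0.83 on array 3. Ctla2a shifted by -2.43, -0.16 and -1.18 on these arrays, and 4, 39 and 30 of the 99 genes shifted lower than it did. Ctla2b shifted by -2.67, -0.19 and -1.06, with 2, 38 and 38 genes lower. All others of the 99 genes had lower control means than the pair, so these ranks do not compare genes of like level. The gene besides the pair with a control mean above 3, 6330415B21Rik, shifted by -2.24, 1.07 and -2.12. The 99 genes were chosen by the same control mean from which shifts are measured, so part of a move toward 0 is built in. The part of this shared shift in the values of the pair was not tested.

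**Figure D1:**
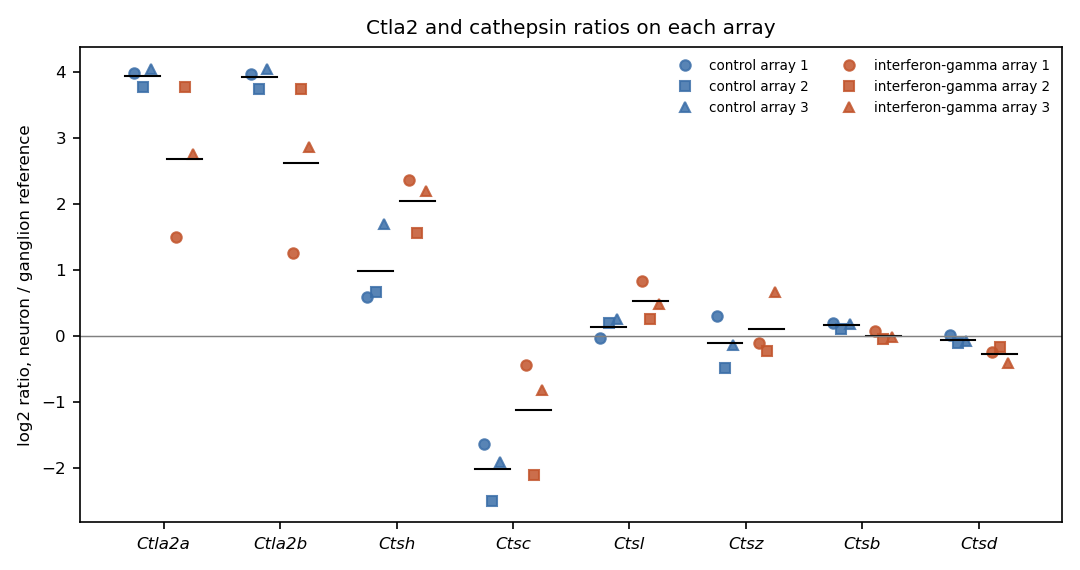
The log2 ratio of neuron over ganglion RNA is plotted for each of the 8 genes, with control arrays in blue, interferon-gamma arrays in orange, array numbers by symbol and group means as black lines (n = 3). Ctla2a and Ctla2b sit near 3.9 in all control arrays and on interferon-gamma array 2, and lower on arrays 1 and 3, while Ctsc lies below 0 throughout.

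The features of Ctla2a and Ctla2b, 1 for each gene, followed each other on all 6 arrays. Their largest gap on any array was 0.25, on interferon-gamma array 1, and their smallest was 0.003. Pairs of features for 1 gene differed by 0.02 to 0.29 in Ctsd, by 0.04 to 0.21 in Ctsz and by 0.40 to 0.64 in Ctsb, so the pair was about as close as the features of Ctsd or Ctsz. Ctla2a and Ctla2b are paralogues of similar sequence. RNA of either gene may bind both features, and the values do not show whether one gene or both carried the signal. Over the 6 arrays, the gene nearest to each was the other, with a root mean square difference of 0.11.

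The root mean square difference compares levels, and only 3 genes, the pair among them, had a control mean above 3. By this measure the next nearest genes were far less alike. Il13ra2, a decoy receptor of interleukin 13, was at a root mean square difference of 1.10 from both, and Cntn5, a neuronal adhesion molecule, at 1.13. Il13ra2 stood at 2.73, 2.26 and 4.0 on control arrays and at 1.24, 2.34 and 1.61 on interferon-gamma arrays. Its control arrays spread widely, with array 3 far above the others.

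**Figure D2:**
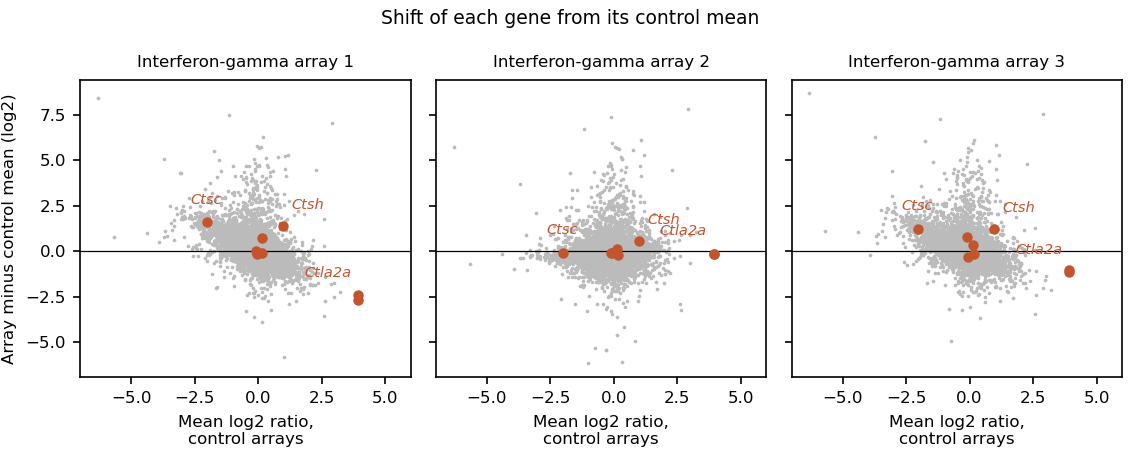
Each grey point is 1 of 19087 genes, with its mean log2 ratio on the 3 control arrays across and its shift from that mean on 1 interferon-gamma array upward, and the 8 genes are orange, with 3 of them named. On arrays 1 and 3 genes of high ratio lie below 0 and genes of low ratio above it. Ctla2a (shifts -2.43 and -1.18) and Ctsc (1.57 and 1.204) lie in these 2 arms, while on array 2 neither does. Both axes use the same control mean, so part of a move toward 0 is built in.

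Ctla2a and Ctla2b lie on chromosome 13 in a row of related genes, between Ctsll3 and the cathepsins that mice express in the placenta (Ctsj, Ctsq, Ctsr, Cts6, Cts8, Cts7, Ctsm and Cts3). RefSeq places 14 protein-coding genes from Ctsll3 to Cts3, with Tpbpb and Tpbpa next to the pair, and all 14 were measured. Besides the pair, Cts6 had the highest control ratio, at 1.28 ± 0.24 (SD, n = 3), followed by 4930486L24Rik, at 1.12 ± 0.01. The other 10 genes had control means from -0.76 to 0.20. The high ratio of the pair was not shared by the whole row. On interferon-gamma, none of the 12 other genes passed the threshold (limma, lowest adjusted p = 0.659), which 1.14% of all genes did. At an unadjusted p under 0.05, which 7.95% of all genes passed, 0 of these 12 passed. Their differences ran from -1.59 for Ctsll3 to 0.48 for Ctsq.

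**Figure D3:**
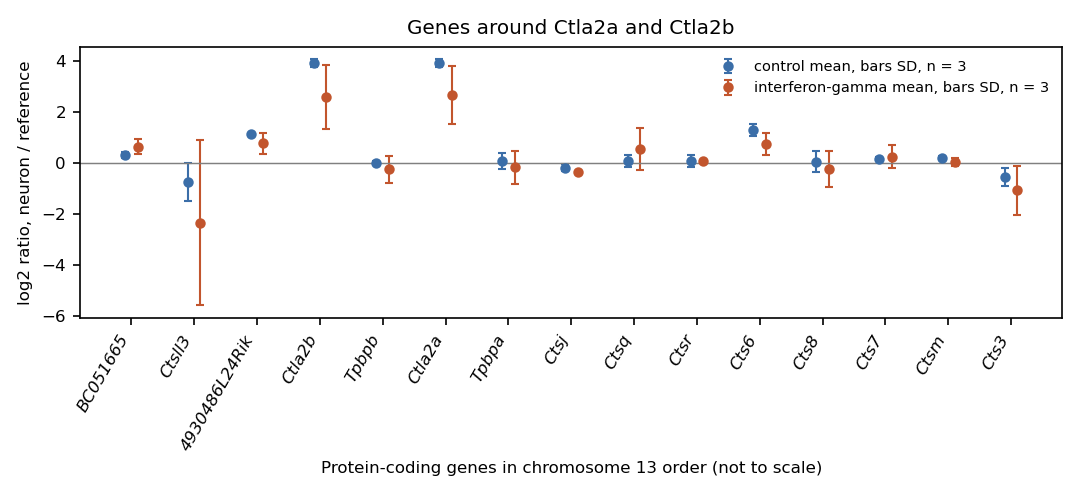
Mean log2 ratios of control (blue) and interferon-gamma arrays (orange) are shown with SD bars (n = 3) for Ctla2a, Ctla2b and their measured neighbours in chromosome order, not to scale. The pair stands at 3.93 and 3.92 in controls, while the next highest neighbour, Cts6, is at 1.28.

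Among the proteases, Ctsh had the largest difference on interferon-gamma. It encodes cathepsin H, an aminopeptidase. Its ratio was 0.59, 0.66 and 1.69 on control arrays, with a mean of 0.98 ± 0.62 (SD, n = 3), and 2.35, 1.56 and 2.20 on interferon-gamma arrays, with a mean of 2.04 ± 0.42. The groups overlapped, since control array 3 was higher than interferon-gamma array 2. The difference was 1.06, a 2.08-fold higher ratio in treated neurons. Leaving out 1 array at a time gave 0.86 to 1.41.

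Ctsc, which encodes cathepsin C, the dipeptidyl peptidase that activates granzymes and other granule proteases, had the lowest control ratio of the 8 genes. It stood at -1.64, -2.50 and -1.91 on control arrays, with a mean of -2.02 ± 0.44 (SD, n = 3), so its share of RNA was 4.04-fold higher in the ganglion. On interferon-gamma arrays it stood at -0.44, -2.11 and -0.81, with a mean of -1.12 ± 0.88. Arrays 1 and 3 lay above all control arrays and array 2 lay below 2 of them. The difference of 0.89 became 1.39 without interferon-gamma array 2 and 0.55 without array 1.

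Genes that were low in the cultures shifted upward together on those arrays. Across the 295 genes whose control mean lay below -1.5, the median shift was 1.30, -0.19 and 1.21 on interferon-gamma arrays 1, 2 and 3. Ctsc shifted by 1.57, -0.10 and 1.204, and 100, 106 and 149 of the 295 genes shifted higher. These genes were chosen by the same control mean from which shifts are measured, so part of a move toward 0 is built in. The part of this shared shift in the values of Ctsc was not tested.

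Ctsl, the gene of cathepsin L, the enzyme whose propeptide CTLA2 proteins resemble, was near the ganglion level in controls. It stood at -0.04, 0.19 and 0.26 on control arrays (mean 0.14 ± 0.16, SD, n = 3) and at 0.83, 0.25 and 0.49 on interferon-gamma arrays (mean 0.52 ± 0.29). Array 2 again fell within the control range. The difference of 0.38 was 0.23 without interferon-gamma array 1.

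Ctsz encodes cathepsin Z, a carboxypeptidase. Its ratios were 0.30, -0.48 and -0.14 on control arrays and -0.11, -0.23 and 0.66 on interferon-gamma arrays. The groups overlapped broadly, and the difference of 0.22 turned to -0.06 without interferon-gamma array 3.

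Ctsb and Ctsd, the genes of the widely expressed cathepsins B and D, differed little between the groups. Ctsb stood at 0.20, 0.11 and 0.18 on control arrays and at 0.07, -0.05 and -0.02 on interferon-gamma arrays, a difference of -0.16. Ctsd stood at 0.02, -0.11 and -0.08 on control arrays and at -0.24, -0.17 and -0.41 on interferon-gamma arrays, a difference of -0.22. In both genes all treated arrays lay below all control arrays, by small amounts. The level of Ctsb against the reference depended on the feature, at -0.09 ± 0.11 for the first and 0.41 ± 0.03 for the second (SD, n = 3), while the differences of these features were -0.17 and -0.15. The features of Ctsd differed by -0.27 and -0.16.

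In order of control ratio, the 8 genes ran Ctla2a, Ctla2b, Ctsh, Ctsb, Ctsl, Ctsd, Ctsz and Ctsc. The neighbours Ctla2a and Ctla2b, and all neighbours from Ctsb to Ctsz, had SD ranges that overlapped. Ctsh lay apart from both of its neighbours, and Ctsc lay apart from Ctsz. The groups did not overlap in 3 of the 8 genes (Ctla2b, Ctsb and Ctsd), all with lower ratios in treated neurons, where 13.7% of all genes were apart in either direction and 5.58% lower. The median difference of the 8 genes was 0.03, against 0.01 over all genes, with 4 above 0 and 4 below. Nothing is read from these counts, since the same values were known when the genes were selected.

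Relatives and partners of the 8 genes were then examined in the same fit, and tests are given for them. These lists and the marker lists were also chosen with earlier results of these data known. Their counts and p-values are therefore descriptive too. Among the 16 other cathepsin genes, all measured, none passed an adjusted p of 0.05 in limma, where 1.14% of all 19087 genes did. The list had a median difference of -0.13, against 0.01 over all genes. At an unadjusted p under 0.05, which 7.95% of all genes passed, 1 was higher, Ctss, and 1 was lower, Ctsf, named after its value was seen. Ctss, the cathepsin of antigen-presenting cells, stood at -0.33, -0.01 and 0.49 on control arrays and at 1.76, 0.78 and 1.71 on interferon-gamma arrays. All treated arrays lay above all control arrays in Ctss and below them in Ctsf. These were the 2 genes of the list whose groups were apart, where 13.7% of all genes were in either direction. The difference of Ctss, 1.36 ± 0.33 (SE), did not pass (limma, adjusted p = 0.237). Of 14 alternatives it passed in 1, with interferon-gamma array 2 left out, at 1.68 (limma, adjusted p = 0.0291). In that setting the count over all genes also went from 217 to 508. With interferon-gamma array 1 or 3 left out, the limma adjusted p of Ctss was 0.652 or 0.651. The lowest of the list was Cts3, a placental cathepsin, at -0.54 ± 0.47 (adjusted p = 0.813), and at -1.002 to -0.04 with arrays left out in turn.

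Of 14 cystatin and stefin genes, the protein inhibitors of cysteine cathepsins, 12 were measured. None passed the threshold in limma, which 1.14% of all genes did, and the median difference was -0.13. At an unadjusted p under 0.05, which 7.95% of all genes passed, 1 was higher. This was Cst7, whose product cystatin F inhibits cathepsin C, at -0.25, -0.27 and -0.49 on control arrays and 0.88, 0.49 and 0.00 on interferon-gamma arrays. The groups did not overlap, and the difference of 0.79 ± 0.23 (SE) had an adjusted p of 0.385 (limma). Cst3, which encodes the secreted inhibitor cystatin C, differed by -0.22 ± 0.11 (limma, adjusted p = 0.698), with all treated arrays below all control arrays. Cst7 and Cst3 were the 2 genes of the list whose groups were apart, where 13.7% of all genes were in either direction. Csta1, a stefin, had the lowest difference, -2.77 ± 1.37 (limma, adjusted p = 0.679), with values of 0.09, -5.77 and -3.56 on interferon-gamma arrays that spread far more than its control values of 0.29, -0.86 and -0.36. The difference was -4.35 without interferon-gamma array 1 and -1.42 without array 2.

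Of the 3 partners of cathepsins in class II loading, Cd74 rose. It encodes the invariant chain, the substrate of cathepsins S and L, and stood at -0.51, -0.57 and -0.06 on control arrays and at 2.79, 2.25 and 2.59 on interferon-gamma arrays. The difference of 2.92 ± 0.20 (SE) passed the threshold (limma, adjusted p = 0.00124), with array 2 nearly as high as the others. Ifi30, a lysosomal thiol reductase, had a difference of -0.36 ± 0.20 (limma, adjusted p = 0.707). All its treated arrays lay below all its control arrays, as in 5.58% of all genes. Lgmn, an endopeptidase that also processes cathepsin precursors, had a difference of -0.18 ± 0.16 (limma, adjusted p = 0.815).

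**Figure D4:**
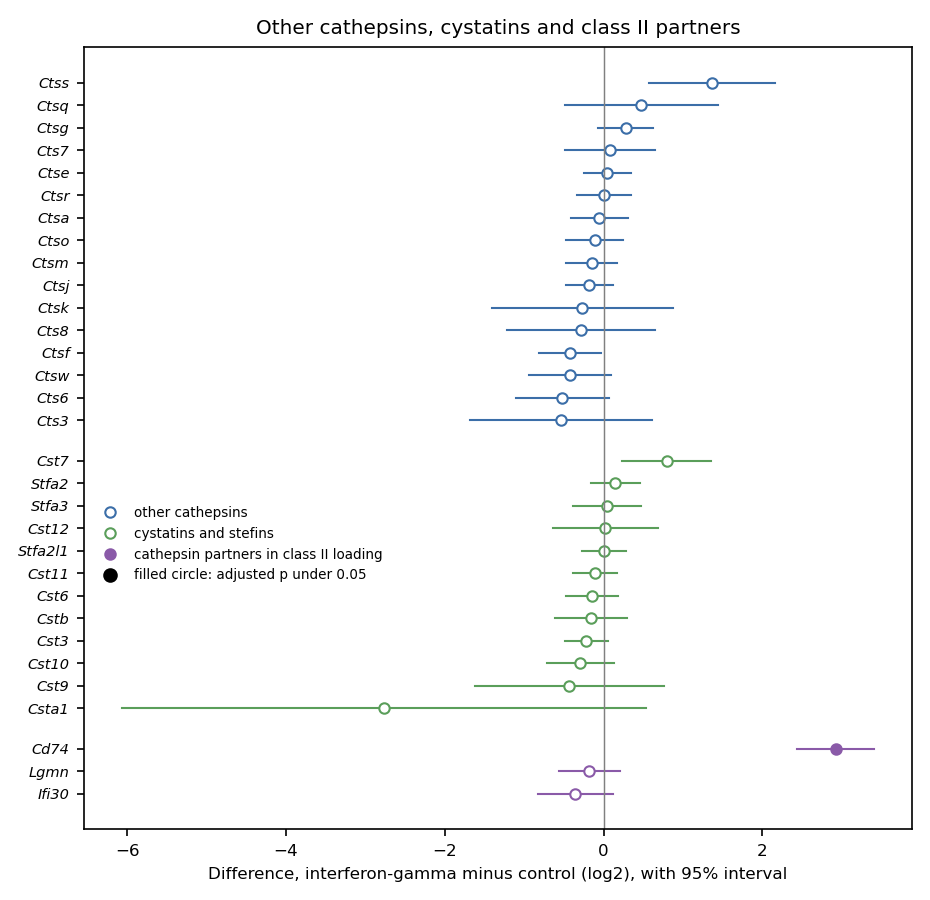
Differences of interferon-gamma minus control on the log2 scale are shown with 95% intervals from limma for 16 other cathepsins (blue), 12 cystatins and stefins (green) and 3 class II partners (purple), where filled points passed an adjusted p of 0.05. Cd74, at 2.92, is the single filled point, and Ctss, at 1.36, and Cst7, at 0.79, have the highest values of their lists.

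Genes of the lysosome at large differed little. Of 24 other lysosomal hydrolases, 20 were measured and none passed the threshold in limma, which 1.14% of all genes did. At an unadjusted p under 0.05, which 7.95% of all genes passed, 0 of the 20 passed. Their differences ran from -0.28 for Galc, which degrades galactolipids, to 0.11 for Gusb, a glucuronidase, and the median was -0.03. Galc, with lower treated arrays, was the 1 gene of the list whose groups were apart, where 13.7% of all genes were in either direction. Of 19 genes of lysosomal sorting, membrane and biogenesis, 18 were measured, and the median difference was 0.03. Of these, 1 rose past the threshold, which 1.14% of all genes passed. At an unadjusted p under 0.05, 1 was higher and 0 were lower, against 7.95% of all genes in either direction. The risen gene was Nagpa, whose enzyme completes the mannose 6-phosphate tag that carries hydrolases to the lysosome. It stood at 0.22, 0.03 and 0.04 on control arrays and at 0.90, 0.90 and 0.98 on interferon-gamma arrays, clear of each other. Its difference was 0.83 ± 0.11 (SE, limma, adjusted p = 0.0260), and the call was lost in 9 of 14 alternatives. The lowest of this list was Lamp1, a lysosomal membrane protein, at -0.20 ± 0.15 (adjusted p = 0.789).

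Markers of other cells moved along with some of these genes. Over the 12 measured of 14 macrophage markers, the mean ratio was -0.50, -0.28 and -0.14 on control arrays 1, 2 and 3 and 0.36, -0.09 and 0.50 on interferon-gamma arrays 1, 2 and 3. As in Ctss, Ctsh and Ctsl, the highest control array was array 3 and the lowest treated array was array 2. Control means in this list ran from -1.34 for C1qa to 0.60 for Adgre1. Of these markers, 2 rose, the complement genes C1qa (1.64 ± 0.23, SE) and C1qc (1.53 ± 0.20), with limma adjusted p of 0.0288 and 0.0211. The threshold was passed by 1.14% of all genes. At an unadjusted p under 0.05, 7 of the 12 were higher and 0 were lower, against 7.95% of all genes in either direction. Over all 19087 genes, 1006 were higher and 512 were lower. In 6 of the 12 all treated arrays lay above all control arrays, where the groups of 13.7% of all genes were apart in either direction. Of the 19087 genes, 1542 had all treated arrays above all control arrays. The median difference of the list was 0.63, against 0.01 over all genes. Differences were above 0 in 10 of the 12 markers and below 0 in 2, Mrc1 (-0.46) and Itgam (-0.42).

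Fibroblast and glial markers separated array 2 of each group from the other arrays. Over 10 fibroblast markers the mean was 0.11, -1.07 and -0.09 on control arrays and 0.35, -1.46 and -0.09 on interferon-gamma arrays. Over the 9 measured of 11 glial markers it was -0.30, -0.83 and -0.41, and then -0.20, -1.07 and -0.26. Their control means ran from -2.10 for Lum to 1.02 for Thy1 in the first list and from -1.81 for Fabp7 to 0.73 for S100b in the second. Control means were below 0 in 6 of the 10 fibroblast markers and in 7 of the 9 glial markers. Ctsc was likewise lowest on array 2 of each group, at -2.50 and -2.11. So were Ctsz, at -0.48 and -0.23, and Ctsb, at 0.11 and -0.05. Ctla2a, Ctla2b, Ctsd, Ctsh and Ctsl were not lowest on array 2 of both groups. The share of all genes with this order was not counted, and a link to fibroblast or glial content was not tested.

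Markers of vessels and of the lymphocytes and mast cells in which CTLA2 was first described had mean ratios near or below 0. Over 12 endothelial markers the means were -0.71 to -0.22 on control arrays and -0.93 to -0.52 on interferon-gamma arrays. Over 10 markers of cytotoxic lymphocytes they were -0.03 to 0.25 and -0.14 to 0.04, and over 8 mast cell markers -0.24 to -0.10 and -0.11 to -0.02. Control means ran from -1.36 for Tie1 to 0.26 for Vwf among endothelial markers, from -0.29 for Prf1 to 0.35 for Cd8a among lymphocyte markers, and from -1.96 for Kit to 0.43 for Fcer1a among mast cell markers. The 10 measured of 12 markers of sympathetic neurons had means of -0.40 to 0.14 in controls and -0.34 to -0.09 on interferon-gamma arrays, close to the ganglion, with control means from -0.58 for Slc18a2 to 0.52 for Gata3. Ratios do not show which markers are absent, and the part of other cells in the values of the 8 genes was not tested.

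**Figure D5:**
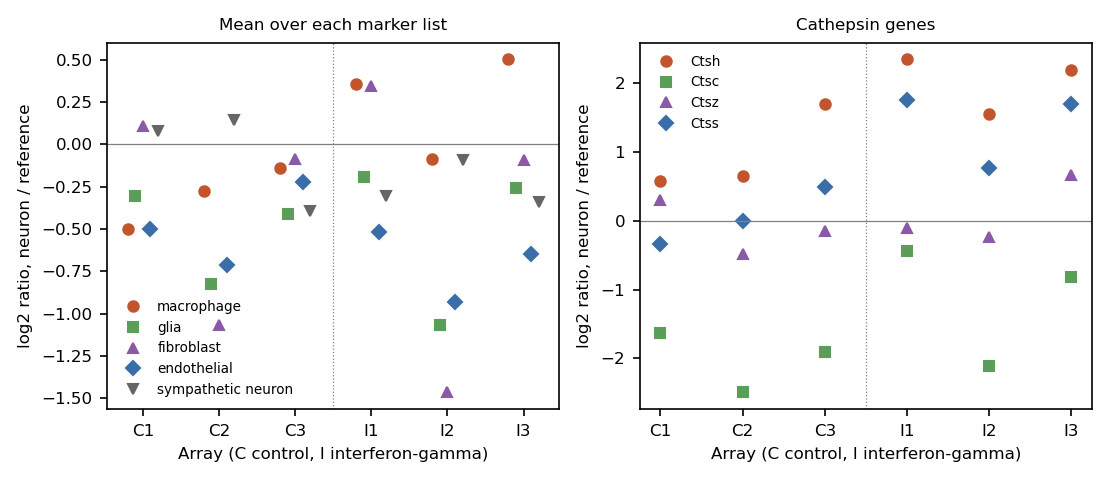
The left panel shows the mean log2 ratio over each marker list on control (C1 to C3) and interferon-gamma arrays (I1 to I3), and the right panel the ratios of Ctsh, Ctsc, Ctsz and Ctss on the same arrays. Fibroblast markers are lowest on C2 and I2, at -1.07 and -1.46, where Ctsc and Ctsz are also lowest in each group. Macrophage markers are highest on I1 and I3, where Ctss is highest.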

How the data were processed

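The values are log2 ratios of array features as the authors deposited them, with array medians of 0 to 0.005, and were used as given. The log2 base is inferred. Agilent Feature Extraction was used, per the submitters' processing notes, and its version, background correction and dye normalization are not given in the sources used here. Signal and background were not used here, so dim features could not be filtered. Of 45220 features, 33653 had 1 gene in the platform annotation, 33517 of them with symbols updated through RefSeq (GRCm38.p6). Features were averaged per gene, which gave 19087 genes. The groups were tested in R 4.3.3 with limma 3.58.1 (two-sided moderated test, Benjamini-Hochberg over all genes, threshold 0.05). The number of arrays limits the precision, and p-values measure the spread between these arrays, which may be technical. In data simulated for 19087 genes, this test recovered 48.6% of genes changed by 1 and 93.8% of those changed by 2 on the log2 scale. These rates describe the simulated data, and whether they hold for the measured arrays was not tested. Weights of the measured arrays ran from 0.541 on interferon-gamma array 2 to 2.057 on interferon-gamma array 3. Many genes also shifted together on single arrays, so the rates for the measured arrays may be lower. The 8 genes and all lists and motifs were chosen with earlier results of these data known. Text names the 8 genes, list genes past the threshold, the highest and lowest of each pathway list, key partners, the 3 genes nearest to Ctla2a and Ctla2b, and extreme markers. Alternatives covered feature choice, scaling, zeros, array weights, variance, low spread, the replicate number and each array.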

Additional observations from a re-analysis of the deposited data

How the results depend on the processing

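As a description, since the same values were known when the 8 genes were selected, 7 of them kept the direction of the difference in every one of the 14 alternatives that gave a value, and the exception was Ctsz, which was at -0.06 without interferon-gamma array 3. Ctsb had no value where genes of low SD were left out. The variance setting, the replicate block and the removal of genes of low SD could not change a difference. Feature choice could not do so for a gene with 1 feature. Agreement in these settings was fixed in advance and adds nothing to the count. With arrays left out in turn, the count of genes past the threshold among all genes, 217 with all arrays, ranged from 113 to 508. It was 136 and 133 without control arrays 1 and 2, 134 and 113 without interferon-gamma arrays 1 and 3, and 508 without interferon-gamma array 2. The count among the relatives and partners, 2 with all arrays (Cd74 and Nagpa), ranged from 1 to 3 with arrays left out. It was 1 with 1 feature per gene, 1 with quantile normalization, 1 without genes of low SD and 1 with the replicate block, and in each of these Nagpa was the gene lost. The cause was not tested. Replicate numbers were not taken as pairs, since deviations from the group means correlated by 0.06, 0.31 and -0.03 for numbers 1, 2 and 3. The arrays numbered 2 did deviate together and correlated best with each other, while those numbered 1 and 3 correlated better with the other number (0.17 and 0.18). With the replicate block 166 genes passed. Dim features can have ratios near 0 in both groups, so small differences of such genes may not be detectable.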
